A study of Rattus norvegicus with 224 samples.

Results

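The proteasome genes and the ubiquitin conjugating enzymes of rat aortic smooth muscle cells are described here across a drug, insulin and glucose experiment. Members were all measured genes whose symbol in the platform annotation begins with Psma to Psmg or with Ube2, each taken at the first of its probes in the table. The rule gave 57 genes, 39 Psm and 18 Ube2, on 65 probes, out of 6502 named genes and 11575 probes. It also caught Psmc3ip, which is named after Psmc3 but is a recombination protein of meiosis and no subunit of the proteasome. The rule reads symbols only, and it was set with earlier results of these data known.

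The cells were explanted from aortas of rat pups 1 day old, used at passage 8 to 11 and, per the design text, made quiescent for 72 h in 0.1% serum. Each dish was kept in 5 or 25 mM glucose for the last 24 h of this, received 100 nM insulin or PBS 30 min before the drug, and was then given DMSO, rapamycin (0.01, 1 or 100 ng/mL) or paclitaxel (0.01, 1 or 1000 ng/mL) for 6 or 24 h. This makes 56 groups of 4 arrays, 1 from each of 4 replicate runs named A to D, or 224 arrays in all. The DMSO controls shared the quiescence, the glucose and the insulin of the treated dishes, so rapamycin and paclitaxel effects are averages over 16 arrays against 16, and insulin and glucose effects are averages over 56 against 56. The sample labels describe larger dishes, more serum and a shorter quiescence than the design text does. Nothing states that runs were separate isolates of cells, so p-values measure the spread between these arrays.

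Each value is a standardized score of a ratio, likely cells over a common newborn rat reference, scaled so that every array has a mean of 0 and an SD of 1. A difference is therefore a number of array SDs and not a fold change, and a level cannot be set against another gene's. Scores of all probes averaged between -0.207 and 0.217 over the arrays, so the levels of the 7 measured smooth muscle markers (of 9 listed) could not check the cell type. Calls among these, or among 6 endothelial, 3 leukocyte and 3 fibroblast markers, are given beside the results they go with. The lowest correlation between arrays was -0.526, and turning the ratio's sign would turn every direction below. In run A the 2 arrays of 0.01 ng/mL rapamycin at 6 h in 25 mM glucose, 1 with insulin and 1 with vehicle, correlated at 0.99993, and 99.5% of their values lay within 0.01. Leaving out 1 of these arrays ended 1 of the 41 calls named below, that of Ube2s under glucose. Differences were tested with limma and called at an adjusted p under 0.05 over all 11575 probes.

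Proteins are marked for destruction by chains of ubiquitin. An activating enzyme (E1) passes ubiquitin to a conjugating enzyme (E2, the Ube2 genes), which acts with a ligase (E3) on the substrate. The proteasome then degrades the marked protein in a barrel of alpha rings (Psma) and beta rings (Psmb), of which Psmb5, Psmb6 and Psmb7 carry the catalytic sites. A regulatory cap of ATPases (Psmc) and non-ATPase subunits (Psmd) binds, unfolds and feeds the substrate. In the immunoproteasome, which interferon induces, Psmb8 and Psmb9 replace catalytic subunits, and the activator of Psme1 and Psme2 opens the barrel. In many cells the transcription factor NFE2L1 raises proteasome genes when proteasome capacity is short, and mTOR, the kinase that rapamycin inhibits, has been linked to proteasome gene expression.

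Promoter sequences from RefSeq (assembly GRCr8) were given for 37 of the 39 Psm genes and 15 of the 18 Ube2 genes. The 250 bases before the start were searched on both strands for 3 motifs. A short form of the antioxidant response element read by NFE2L1 and NFE2L2, TGACNNNGC, was present in 6 Psm promoters (16.2%) and 4 Ube2 promoters (26.7%), against 10.2% of all 27457 promoters. The CCAAT box was present in 20 Psm promoters (54.1%) and 6 Ube2 promoters (40.0%), against 34.3% of all. The cell cycle genes homology region, TTTGAA or TTCGAA, was present in 6 Psm promoters (16.2%) and 3 Ube2 promoters (20.0%), against 17.3% of all. In Psmb2 a CCAAT box shares letters with each of the other motifs, and no other member's matches overlap. These are descriptions of letters and were not tested. The upstream windows given here are those of the 3 Psm genes with the largest differences under rapamycin at 6 h, and of Ube2t, which was lower under rapamycin at 24 h. Capitals mark the short antioxidant response element in Psmb6 and in Psme4, where it lies on the opposite strand. They mark TTCGAA in Psmd5 and both CCAAT boxes in Ube2t.
Psmb6 (chr10:55737638-55737887, plus strand): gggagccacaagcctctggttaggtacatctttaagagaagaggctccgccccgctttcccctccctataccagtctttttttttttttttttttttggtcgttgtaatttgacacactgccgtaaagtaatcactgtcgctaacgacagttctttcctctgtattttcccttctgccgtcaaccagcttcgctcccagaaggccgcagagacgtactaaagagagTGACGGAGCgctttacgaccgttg
Psme4 (chr14:108706393-108706642, plus strand): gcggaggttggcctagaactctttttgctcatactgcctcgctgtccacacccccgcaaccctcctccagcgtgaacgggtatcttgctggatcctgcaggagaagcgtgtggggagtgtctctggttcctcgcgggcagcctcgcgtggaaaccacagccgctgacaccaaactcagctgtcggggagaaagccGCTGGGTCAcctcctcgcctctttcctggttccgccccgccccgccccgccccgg
Psmd5 (chr3:38548491-38548740, minus strand): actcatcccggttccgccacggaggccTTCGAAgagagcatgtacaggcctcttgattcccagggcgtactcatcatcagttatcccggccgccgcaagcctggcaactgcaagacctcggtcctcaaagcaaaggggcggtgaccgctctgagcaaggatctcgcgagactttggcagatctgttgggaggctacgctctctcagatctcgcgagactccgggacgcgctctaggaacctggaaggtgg
Ube2t (chr13:48954916-48955165, plus strand): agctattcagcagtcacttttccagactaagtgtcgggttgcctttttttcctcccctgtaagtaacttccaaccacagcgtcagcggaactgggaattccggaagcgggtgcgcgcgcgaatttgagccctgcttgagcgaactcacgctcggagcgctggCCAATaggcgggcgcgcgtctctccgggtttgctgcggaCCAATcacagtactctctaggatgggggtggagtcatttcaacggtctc
The element begins 24 bases before the start in Psmb6 and 55 bases before it in Psme4.

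Over 31 comparisons, 20 of the 39 Psm genes and 6 of the 18 Ube2 genes were called at least once, 51.3% and 33.3%, beside 35.7% of all probes. The other 31 members were called in none. The map of differences shows rapamycin at 6 h as a column of mostly lower Psm genes and insulin as a column of mostly higher ones. Among Ube2 genes the dots sit in 3 rows, Ube2c, Ube2s and Ube2t, whose enzymes serve mitosis and DNA repair.

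**Figure D1:**
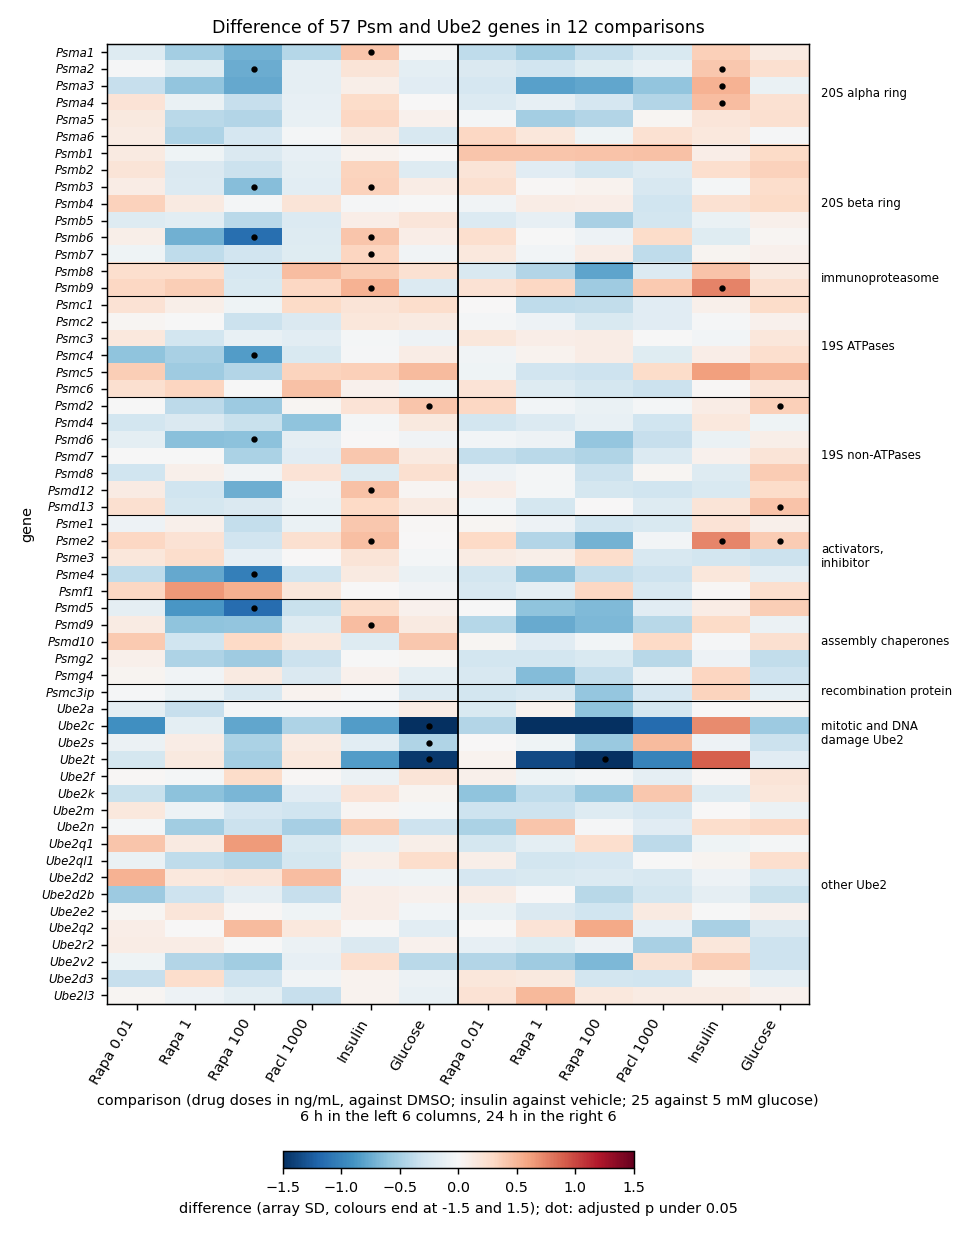
Differences of the 57 members (rows, grouped by role) in 12 comparisons (columns), in array SDs, with 6 h left and 24 h right of the vertical line. Red is higher, blue is lower, and a dot marks an adjusted p under 0.05: 7 Psm genes carry a dot for 100 ng/mL rapamycin at 6 h and 8 for insulin at 6 h.

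At 6 h, 100 ng/mL rapamycin lowered 7 of 39 Psm genes and none of the 18 Ube2 genes, where 2.18% of all probes were called lower. The genes come from the rings, the cap and an activator: Psmb6 and Psmb3 of the beta ring, Psma2 of the alpha ring, the ATPase Psmc4, the cap subunit Psmd6, the cap assembly chaperone Psmd5 and Psme4, an activator of the barrel. Of the 39 Psm differences, 36 were below 0, with a median of -0.334, while over all probes 52.3% were below 0 and the median was -0.0221. Of the 18 Ube2 differences 13 were below 0, with a median of -0.197. At an unadjusted p under 0.05, 13 Psm genes were lower and 1 higher, and among Ube2 genes 0 were lower and 1 higher. The count over all 11575 probes was 1864 in either direction. The histogram of this comparison sets both groups beside all probes.

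**Figure D2:**
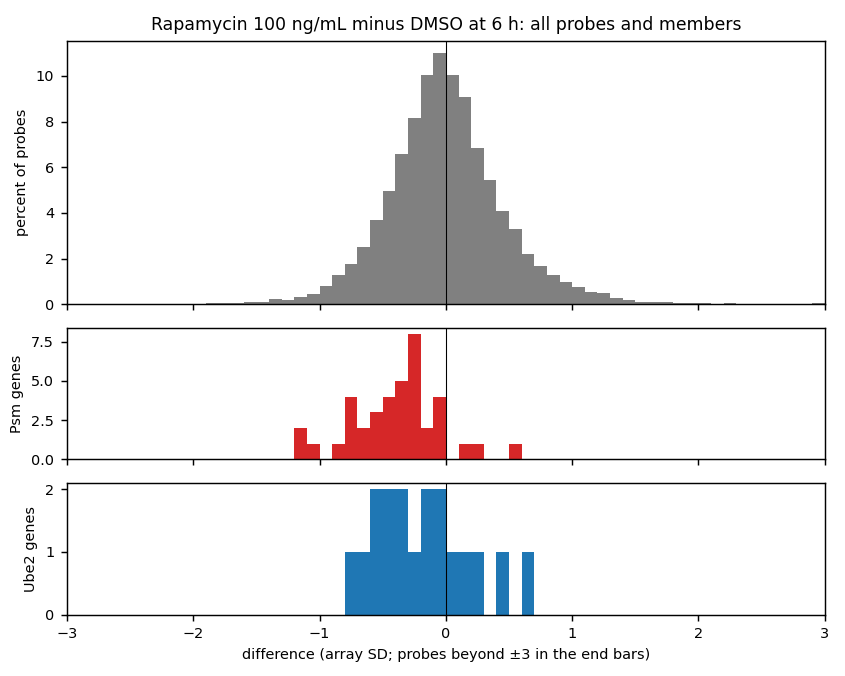
Differences between 100 ng/mL rapamycin and DMSO at 6 h in array SDs: percent of all 11575 probes per bar (top), and number of Psm genes (middle) and of Ube2 genes (bottom). The Psm bars lie mostly left of 0, with 36 of 39 below it, and the Ube2 bars lie on both sides.

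Psmb6, the catalytic beta subunit of the caspase-like site, scored -0.234 to 2.16 (median 0.518) in the 16 DMSO arrays and -1.93 to 0.653 (median -0.470) with 100 ng/mL rapamycin. The ranges overlapped, and the median under the drug lay below the lowest DMSO array. The difference was -1.13 ± 0.231 (SE, limma adjusted p = 0.000368), with run values between -1.41 and -0.788. Psmd5, which holds ATPases of the cap while it is built, scored -0.851 to 2.35 (median 0.242) in DMSO and -1.94 to 0.523 (median -0.675) with the drug, a difference of -1.14 ± 0.263 (limma adjusted p = 0.00217). Psme4, also known as PA200, scored -1.10 to 1.44 (median 0.684) in DMSO and -1.30 to 0.686 (median -0.434) with the drug, a difference of -1.02 ± 0.255 (limma adjusted p = 0.00521). For both genes the groups overlapped over much of their range, and all 4 runs were below 0. Against the same DMSO arrays Psme4 also stood at -0.380 with 0.01 ng/mL rapamycin. It stood at -0.445 and -0.622 with 0.01 and 1 ng/mL paclitaxel, and was called in none of these.

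The other called genes had smaller differences. The ATPase Psmc4 differed by -0.839 ± 0.217 (limma adjusted p = 0.00784), but by only -0.076 in run B. Psmb3 was likewise near 0 in run D, at -0.065. Psma2 differed by -0.745, Psmb3 by -0.641 and Psmd6 by -0.617, with limma adjusted p-values of 0.0473, 0.0258 and 0.0353. Psma3 (-0.764), Psma1 (-0.712), Psmd12 (-0.730), Psmd9 (-0.591) and Psmd2 (-0.545) were of similar size and did not pass the threshold. Psmf1, an inhibitor of the proteasome, had the highest Psm value at 0.528 (limma adjusted p = 0.187). Psmb8 and Psmb9 of the immunoproteasome differed by -0.248 and -0.223 and were not called.

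By role, all 6 measured alpha subunits, all 7 beta subunits and all 6 ATPases were below 0, with medians of -0.574, -0.320 and -0.221. Of the 10 measured genes named as non-ATPases 9 were below 0, with a median of -0.509. Among 5 assembly chaperones, which include Psmd5, Psmd9 and Psmd10, 3 were below 0. Psmd10 stood at 0.293 and Psmg4 at 0.130.

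The calls depended on how much data entered. With the 4 runs as the unit only Psmb6 remained called (adjusted p = 0.0491), Psmd5 and Psme4 having adjusted p-values of 0.0647 and 0.0758. Without run A, B, C or D, 4, 4, 3 and 5 Psm genes were called lower. How many of all probes these smaller fits call is not given here. Over the same arrays 2 of 4 measured proliferation markers were lower, Mcm5 by -2.69 and Pcna by -0.895 (limma adjusted p = 0.000117 and 0.0351). The summed score of these markers had a median of -3.01 (range -11.6 to 7.39) with the drug and 1.92 (range -7.42 to 10.7) in DMSO, and its part in the Psm differences was not tested. No smooth muscle, endothelial, leukocyte or fibroblast marker was called here.

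The 4 settings of insulin and glucose gave values of their own, 4 arrays against 4 each. Psmc4 was lower by a like amount in all, between -0.866 and -0.792. Psmb6 differed by -0.391 and -0.627 with vehicle, at 5 and 25 mM glucose, and by -1.80 and -1.72 with insulin. The insulin effect on Psmb6 differed between rapamycin and DMSO by -1.25 ± 0.463 and was not called (limma adjusted p = 0.9998). Psmd5 ranged most, from -2.55 with vehicle in 5 mM glucose to 0.275 with vehicle in 25 mM. No probe was called for the change of the insulin effect under rapamycin at either hour (0% of all probes in limma). At an unadjusted p under 0.05, 1 Psm gene (Psmb6) differed at 6 h and 0 at 24 h, with 0 Ube2 genes at both. In each family the smallest p-values belonged to Psmb6 and Ube2l3 (a difference of 0.688) at 6 h. At 24 h they belonged to Psmc4 (a difference of 0.833) and Ube2n (1.25). Over all 11575 probes, 410 at 6 h and 375 at 24 h had an unadjusted p under 0.05.

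At lower doses, set against the same DMSO arrays, no member was called. With 1 ng/mL at 6 h, where 1.54% of probes were called in either direction, 0 Psm and 0 Ube2 genes passed limma's threshold, while 10 Psm genes (9 lower) and 0 Ube2 genes had an unadjusted p under 0.05. So had 1326 of all 11575 probes. The Psm median was -0.214 and 29 of 39 were below 0. Among Psm genes the smallest p belonged to Psmd5, at -0.868 ± 0.263 (limma adjusted p = 0.0628). Among Ube2 genes it belonged to Ube2k, a builder of K48-linked chains, at -0.620 ± 0.364 (limma adjusted p = 0.541). Psmb6 stood between DMSO and the top dose, with a median of 0.0635. With 0.01 ng/mL 0% of probes were called at either hour, and at 6 h the Psm median was 0.108. By family, the smallest p-values at 0.01 ng/mL were those of Psmc4 (a difference of -0.607) and Ube2d2 (0.523) at 6 h. At 24 h they were those of Psmd9 (-0.425) and Ube2v2 (-0.444). Between 100 and 1 ng/mL at 6 h no member was called and 0.0518% of probes were. There, 4 Psm and 2 Ube2 genes had an unadjusted p under 0.05, as had 472 of all 11575 probes. In each family the smallest were those of Psmd10 (0.591) and Ube2d3 (-0.572).

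**Figure D3:**
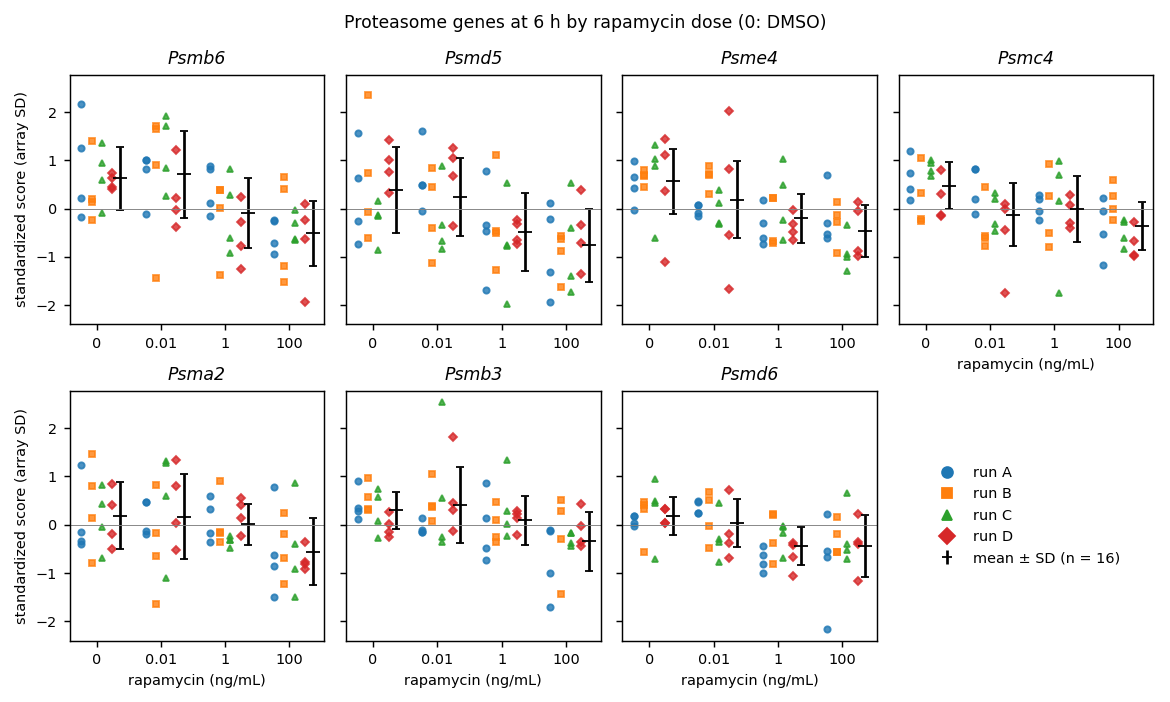
Standardized scores (array SDs) at 6 h of the 7 Psm genes called lower at 100 ng/mL, by rapamycin dose, with a point per array, a symbol and colour per run, and the mean ± SD of 16 arrays beside them. The arrays of 0.01 ng/mL lie near those of DMSO for Psmb6 and Psmd5. Their mean is lower for Psmc4 (-0.132 beside 0.476 in DMSO) and Psme4 (0.187 beside 0.566), and higher for Psmb3 (0.410 beside 0.302). The mean is lowest at 100 ng/mL except for Psmd6, whose mean is about as low at 1 ng/mL, and the arrays overlap in every panel.

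At 24 h no Psm gene was called under 100 ng/mL rapamycin, where 1.4% of all probes were called lower. The Psm median was -0.268 and 30 of 39 genes were below 0. At an unadjusted p under 0.05, 9 Psm genes were lower and 0 higher, beside 1509 of 11575 probes in either direction. The smallest p belonged to Psmd9, a chaperone of the cap, at -0.680 ± 0.219 (limma adjusted p = 0.0730). Psmb8 differed by -0.790 (limma adjusted p = 0.0985) and Psmb9 by -0.534. Psmb6 was already low in DMSO at 24 h, with a mean of -0.357 beside -0.431 under the drug. With 1 ng/mL at 24 h (1.47% of probes called), 0 Psm and 0 Ube2 genes passed limma's threshold, with 7 Psm and 4 Ube2 genes at an unadjusted p under 0.05. The unadjusted count over all 11575 probes was 1529. Psmd9 missed the threshold at -0.751 ± 0.219 (limma adjusted p = 0.0501), and Ube2c, with the smallest p among Ube2 genes, stood at -2.00 ± 0.729. Between the upper doses at 24 h 0.0346% of probes and 0 members were called, with 3 Psm and 0 Ube2 genes at an unadjusted p under 0.05. The smallest p in each family was that of Psmd6 (a difference of -0.504) and of Ube2s (-0.495). For these doses the unadjusted count over all 11575 probes was 960.

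The change of the rapamycin effect from 6 to 24 h was called for 0.095% of probes and for no member. At an unadjusted p under 0.05, 3 Psm genes and 1 Ube2 gene differed, beside 771 of 11575 probes. Among members Psmb6 had the smallest p, its difference being 1.06 ± 0.327 nearer to 0 at 24 h (limma adjusted p = 0.276). The other Psm genes were Psmc4 (0.955 ± 0.307) and Psmb3 (0.692 ± 0.267), with limma adjusted p-values of 0.341 and 0.508. Like Psmb6, both were called lower at 6 h and moved upward. Ube2t moved the other way, by -1.56 ± 0.783 (limma adjusted p = 0.734). For the 7 genes lower at 6 h, this test, which called few probes, leaves a change by 24 h undecided.

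Ube2t loads ubiquitin in the repair of DNA crosslinks by the Fanconi pathway. At 24 h it scored -2.72 to 3.06 (median 0.0730) in DMSO and -4.29 to 0.0870 (median -2.13) under 100 ng/mL rapamycin. The highest array under the drug lay near the median of DMSO. It was the only Ube2 gene called, with a difference of -2.07 ± 0.554 (limma adjusted p = 0.0183) and all 4 runs at -1.61 or lower, and it was called with the runs as the unit (adjusted p = 0.0286). It was not called without run A, B or C. Ube2c, the conjugating enzyme of the anaphase-promoting complex, scored -3.70 to 6.68 (median -0.587) in DMSO and -5.21 to 9.05 (median -2.17) under the drug. Its difference of -2.18 ± 0.729 did not pass (limma adjusted p = 0.0923), and 1 array at 9.05 stood far above the rest of its group. Of the 4 measured proliferation markers, 3 were lower here, Cdk1 by -3.20, Mki67 by -3.36 and Mcm5 by -2.69. Their summed score had a median of -9.37 (range -13.6 to 1.19) under the drug and 1.16 (range -6.78 to 11.8) in DMSO. Fewer dividing cells and less RNA per cell cannot be told apart in these bulk samples, and the part of the markers in the Ube2t difference was not tested.

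Insulin raised 8 of 39 Psm genes at 6 h, averaged over the 7 drug conditions, where 3.59% of all probes were called higher. They were Psma1, the beta subunits Psmb3, Psmb6, Psmb7 and Psmb9, the cap subunit Psmd12, the chaperone Psmd9 and the activator subunit Psme2. No Psm gene was lower and no Ube2 gene was called. The Psm median was 0.189, with 8 of 39 genes below 0, beside 0.00791 over all probes and 0.0210 over Ube2 genes. At an unadjusted p under 0.05, 16 Psm genes were higher and 0 lower, and among Ube2 genes 1 was higher and 2 lower. The count over all 11575 probes was 2284 in either direction. Over the same arrays 1 of 3 leukocyte markers, Cd14 (-0.460), and 1 of 7 smooth muscle markers, Lmod1 (-0.587), were lower. The leukocyte sum had a median of -0.688 (range -5.34 to 3.25) with insulin and 0.0105 (range -4.23 to 6.55) with vehicle, and the smooth muscle sum 1.25 (range -2.10 to 6.28) and 2.04 (range -2.25 to 6.89). Their part in the Psm differences was not tested.

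Psmd9 scored -1.27 to 1.82 (median -0.091) in the 56 vehicle arrays and -1.31 to 1.82 (median 0.337) in the 56 insulin arrays. The ranges were nearly the same and the middle of the arrays shifted, by 0.461 ± 0.117 (limma adjusted p = 0.00447). Psme2, which forms the interferon-induced activator with Psme1, shifted by 0.456 ± 0.122 (limma adjusted p = 0.00809), and was above vehicle in all 7 drug conditions, by 0.362 to 0.660. Psmb6 shifted by 0.417 ± 0.124 (limma adjusted p = 0.0197), Psmb3 by 0.344 and Psmb9 by 0.519. Psma1, Psmd12 and Psmb7 shifted by 0.411, 0.435 and 0.318 with limma adjusted p-values of 0.0424, 0.0449 and 0.0482. The other probe of Psmd12 showed 0.0373 and was not called (limma adjusted p = 0.948). Psmb8, the partner of Psmb9, stood at 0.369 (limma adjusted p = 0.102).

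At 24 h insulin raised 5 of 39 Psm genes, where 2.57% of all probes were called higher. They were the alpha subunits Psma2, Psma3 and Psma4 with Psmb9 and Psme2, and no Ube2 gene was called. The Psm median was 0.112, with 11 of 39 below 0, beside -0.0136 over all probes. All 6 alpha subunits were above 0, with a median of 0.382, while the 7 beta subunits had a median of 0.0439. At an unadjusted p under 0.05, 12 Psm genes were higher and 1 lower, and 2 Ube2 genes were higher and 1 lower. The count over all 11575 probes was 1726 in either direction.

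Psme2 had the smallest adjusted p of any member in the study. It scored -1.93 to 1.30 (median -0.275) with vehicle and -1.37 to 2.07 (median 0.261) with insulin, a difference of 0.728 ± 0.122 (limma adjusted p = 1.05e-05), and was above vehicle in all 7 drug conditions, by 0.315 to 1.19. Psmb9 scored -2.59 to 1.45 (median -0.133) with vehicle and -1.57 to 3.27 (median 0.732) with insulin, a difference of 0.741 ± 0.174 (limma adjusted p = 0.00344), and was above vehicle in 7 of 7 conditions too. For both genes the highest insulin arrays exceeded every vehicle array. Psma3 differed by 0.521, Psma4 by 0.467 and Psma2 by 0.410 (limma adjusted p = 0.0210, 0.0178 and 0.0465). The other probe of Psma4 gave 0.346 and was not called (limma adjusted p = 0.0944). That of Ube2e2 gave 0.669 and was called (limma adjusted p = 0.0288), though the first stood at -0.00613.

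The runs did not share these insulin effects evenly. At 24 h Psmb9 was higher by 1.72 in run A and 1.47 in run C, but by -0.0326 in run B and -0.193 in run D. Psme2 was higher by 1.12 and 1.42 in runs A and C and by 0.160 and 0.220 in runs B and D. The alpha subunits were even, with all runs of Psma2, Psma3 and Psma4 between 0.240 and 0.653. At 6 h Psmb6 was higher by 0.894 and 0.761 in runs A and C and by -0.0401 and 0.0532 in B and D. Without run A, 0 Psm genes were called at 6 h and 1 at 24 h, without run C 0 at both hours. Treating the runs as the unit left 0 at both, and no probe at all was called at either hour. Without run B or D, 8 and 9 were called at 6 h and 5 and 5 at 24 h. The fits without a run hold 1 array fewer per group, and their calls over all probes are not given. A fall in these counts is thus not shown to be particular to the Psm genes. Of the 3 measured interferon response genes, Irf7 was also higher at 24 h, by 0.932 ± 0.193 (limma adjusted p = 0.000605), with run values of 0.989, 0.229, 1.81 and 0.701 in A to D. The other measured genes of that list, Irf1 and Oas1a, were not called, and the summed score had a median of -0.459 (range -3.53 to 4.92) with insulin and -1.74 (range -5.20 to 2.10) with vehicle. Its part in the Psmb9 and Psme2 differences was not tested. Of the 4 proliferation markers Mcm5 (1.07) and Mki67 (1.18) were also higher at 24 h.

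**Figure D4:**
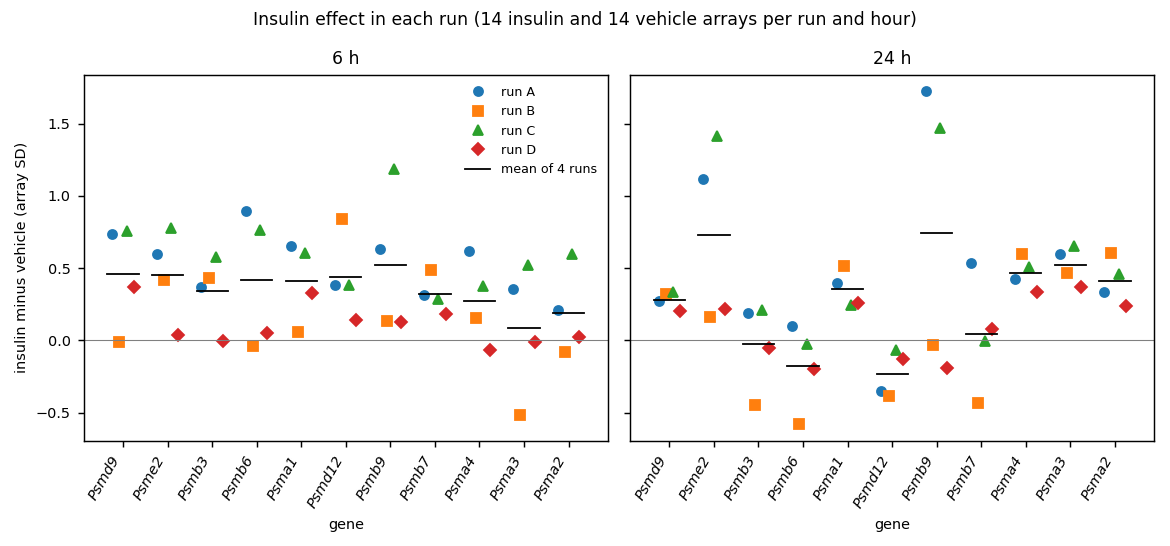
Insulin minus vehicle in each run (14 against 14 arrays, array SDs) at 6 h (left) and 24 h (right) for the 11 Psm genes called higher at either hour, with a line at the mean of the runs. Runs A and C stand far above B and D for Psmb9 and Psme2 at 24 h, while the runs of Psma2, Psma3 and Psma4 lie close together.

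In DMSO arrays alone, 8 against 8, insulin gave 0% of probes and no member at either hour. There, 6 Psm genes at 6 h and 1 at 24 h, with 0 and 2 Ube2 genes, had an unadjusted p under 0.05. So had 661 of all 11575 probes at 6 h and 410 at 24 h. In each family the smallest p-values were those of Psmb7 (0.840 ± 0.283) and Ube2t (-0.989 ± 0.783) at 6 h, and of Psme2 (0.711 ± 0.324) and Ube2t (1.78 ± 0.783) at 24 h.

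The change of the insulin effect from 6 to 24 h was looked at after these values were seen, and was called for 2.12% of probes and for Psmb6 and Ube2t. Ube2t was lower with insulin at 6 h, by -0.840, and higher at 24 h, by 0.901, each short of the threshold alone, and the difference was 1.74 ± 0.418 (limma adjusted p = 0.00748). All 4 runs were below 0 at 6 h and above 0 at 24 h. Ube2c went the same way, from -0.837 to 0.706, but its difference of 1.54 ± 0.551 did not pass (limma adjusted p = 0.122). Psmb6 went from 0.417 to -0.177, a difference of -0.594 ± 0.175 (limma adjusted p = 0.0429). Mki67 stood at -0.982 with insulin at 6 h (not called) and 1.18 at 24 h, and its part in the Ube2t difference was not tested. With the runs as the unit none of these 3 members passed, at adjusted p-values of 0.181 for Ube2t, 0.148 for Ube2c and 0.266 for Psmb6. The same test for glucose called 2.4% of probes and no member, 6 members having an unadjusted p under 0.05.

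High glucose lowered 3 of 18 Ube2 genes at 6 h, where 1.96% of all probes were called lower. Ube2c scored -5.44 to 4.93 (median 1.97) in the 56 arrays at 5 mM and -4.39 to 3.72 (median -0.132) in the 56 at 25 mM. The ranges overlapped. The difference was -1.87 ± 0.390 (limma adjusted p = 0.000475), with run values of -2.42 to -1.58. It was below 0 in 6 of 7 drug conditions, the exception being 1 ng/mL paclitaxel at 0.116. Ube2t scored -3.29 to 3.85 (median 1.70) at 5 mM and -3.02 to 2.99 (median -0.200) at 25 mM, a difference of -1.45 ± 0.296 (limma adjusted p = 0.000358), and was below 0 in 7 of 7 conditions and 4 of 4 runs. Both passed with the runs as the unit, at adjusted p-values of 0.00160 and 0.00404. Ube2s, which extends K11-linked chains on substrates of the anaphase-promoting complex, differed by less, -0.446 ± 0.139 (limma adjusted p = 0.0456), and was not called without run A, B or D or without 1 of the nearly identical arrays.

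No other Ube2 gene was called. Ube2n and Ube2v2 were each below 0 in 6 of 7 drug conditions, with a median difference of -0.356 for the pair. The Ube2 median was -0.0555 with 11 of 18 below 0, beside 0.00579 over all probes, and 4 Ube2 genes were lower at an unadjusted p under 0.05. In either direction 1670 of 11575 probes had such a p. All 4 measured proliferation markers were lower over the same arrays, Mki67 by -2.11, Cdk1 by -1.72, Mcm5 by -1.35 and Pcna by -0.651. Their summed score had a median of -0.624 (range -11.6 to 7.42) at 25 mM and 5.17 (range -12.0 to 10.7) at 5 mM, and its part in the Ube2 differences was not tested. At 24 h no Ube2 gene was called, with 4 lower at an unadjusted p under 0.05, beside 2623 of 11575 probes in either direction. Ube2c stood at -0.542 and Ube2s, with the smallest p, at -0.323 (limma adjusted p = 0.128). Ube2c and Ube2t had the highest correlation of any pair of members over the 224 arrays (r = 0.732), and the widest spread, with SDs of 2.35 and 1.78 beside 0.480 for Psmc2.

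**Figure D5:**
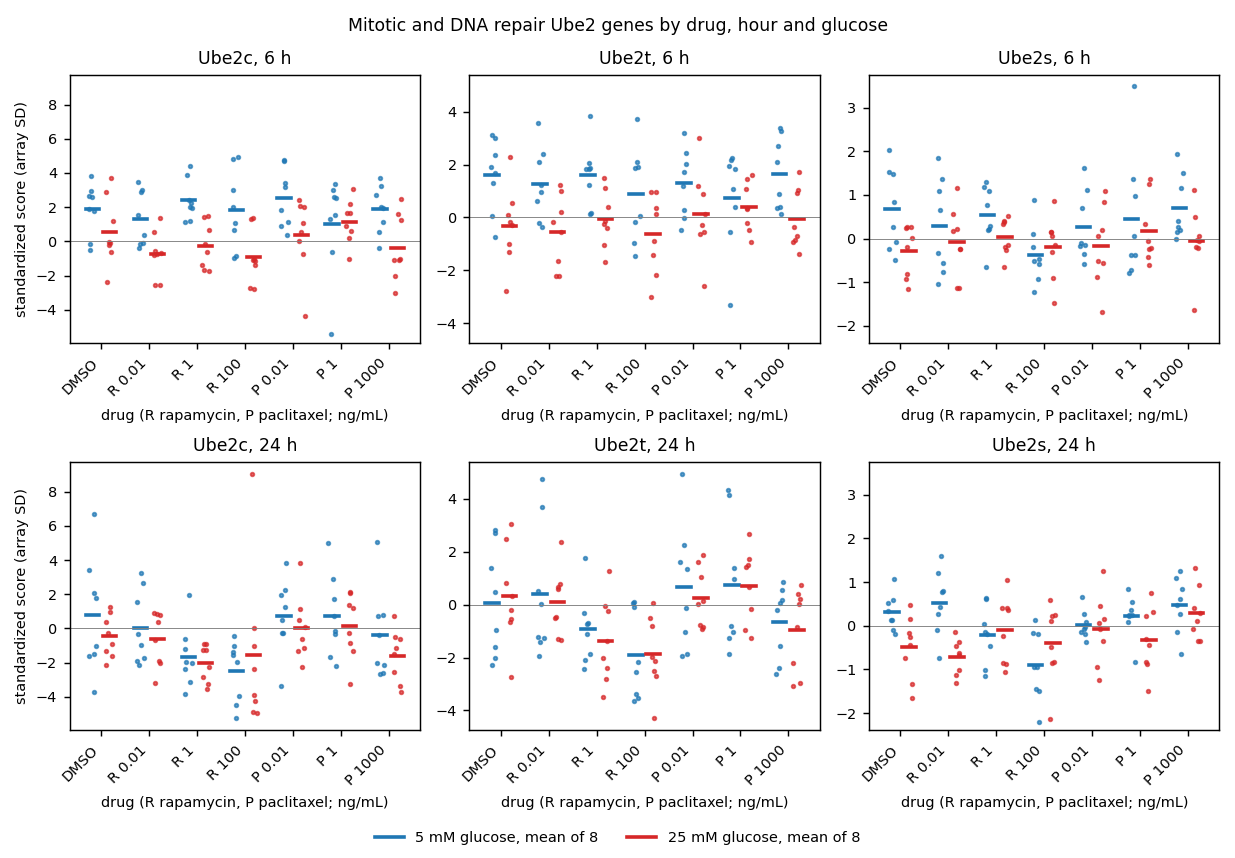
Standardized scores (array SDs) of Ube2c, Ube2t and Ube2s at 6 h (top) and 24 h (bottom) by drug, with a point per array and a line at the mean of 8 arrays, in blue for 5 mM and red for 25 mM glucose. At 6 h the red lines of Ube2t lie below the blue in all 7 conditions, and those of Ube2c in 6, and at 24 h both genes have their lowest means over both glucose levels with 100 ng/mL rapamycin.

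Of the Psm genes, high glucose raised Psmd2 at 6 h and Psmd2, Psmd13 and Psme2 at 24 h, where 1.57% and 5.45% of all probes were called higher. Psmd2, a large scaffold subunit of the cap base, differed by 0.421 ± 0.107 at 6 h and 0.359 ± 0.107 at 24 h (limma adjusted p = 0.00720 and 0.0153). It scored -1.35 to 1.78 (median -0.168) at 5 mM and -0.932 to 2.47 (median 0.389) at 25 mM at 6 h. The groups overlapped throughout. Psmd13 of the cap lid differed by 0.430 ± 0.126 and Psme2 by 0.380 ± 0.122 at 24 h (limma adjusted p = 0.0127 and 0.0278). The share of Psm genes called at each hour was near the share of all probes. At an unadjusted p under 0.05, 4 Psm genes were higher and 1 lower at 6 h, and 14 higher and 3 lower at 24 h. Over all 11575 probes, 1670 at 6 h and 2623 at 24 h had such a p in either direction. The Psm median was 0.0230 at 6 h and 0.190 at 24 h, when 9 of 39 were below 0, beside -0.00680 over all probes. At 24 h the smooth muscle marker Cnn1 (0.488, 1 of 7) and the leukocyte marker Cd14 (0.516, 1 of 3) were also higher and the proliferation marker Mki67 (-1.16, 1 of 4) lower, and their part was not tested. With the runs as the unit none was called. Without run B 1 Psm gene was called at 24 h, and without run C 5. In DMSO arrays alone glucose gave 0.0346% of probes at 6 h and 0.285% at 24 h, and no member. There, 1 Psm and 2 Ube2 genes at 6 h and 6 Psm and 3 Ube2 genes at 24 h had an unadjusted p under 0.05. So had 687 of all 11575 probes at 6 h and 1376 at 24 h. By family, Psmd5 (-0.800) and Ube2s (-0.950) had the smallest p-values at 6 h, and Psmb2 (1.04) and Ube2k (-1.34) at 24 h.

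Paclitaxel, which stabilises microtubules, moved no member past the threshold at any dose. With 1000 ng/mL, 0.294% of probes were called at 6 h and 1.32% at 24 h, and with 1 or 0.01 ng/mL 0% at either hour. At an unadjusted p under 0.05, 1 Psm gene and 0 Ube2 genes differed at the top dose at each hour. So did 837 of 11575 probes at 6 h and 1238 at 24 h. At 24 h the smooth muscle marker Tagln (-4.30, 1 of 7) and the proliferation marker Mcm5 (-2.29, 1 of 4) were lower. By family, the smallest p-values at 6 h were those of Psmd4 (-0.603 ± 0.232), a ubiquitin receptor of the cap, and Ube2d2 (0.468 ± 0.262). At 24 h they were those of Psma3 (-0.596 ± 0.276) and Ube2s (0.470 ± 0.260). At 1 ng/mL they were Psme4 (-0.622) and Ube2ql1 (-0.476) at 6 h and Psmd9 (-0.495) and Ube2ql1 (-0.547) at 24 h. At 0.01 ng/mL they were Psmc1 (0.488) and Ube2v2 (-0.491) at 6 h and Psma2 (-0.401) and Ube2l3 (0.531) at 24 h. The counts at an unadjusted p under 0.05 at these lower doses lay between 0 and 2 in either family. Over all 11575 probes they were 599 and 215 at 1 ng/mL (6 and 24 h), and 349 and 203 at 0.01 ng/mL. The change of the effect of 1000 ng/mL from 6 to 24 h was called for 0.00864% of probes and no member. There, 1 Psm and 0 Ube2 genes had an unadjusted p under 0.05, the smallest in each family being that of Psmc6 (a difference of -0.767) and of Ube2d2 (-0.713). For this change the unadjusted count over all 11575 probes was 562.

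The top doses of both drugs, which differ in ng/mL, were also set against each other, with the same rapamycin arrays as above. At 6 h Psmb6 and Psmd5 were lower with rapamycin, where 2.74% of probes were, and Ube2q1 was higher, where 3.98% were. Psmb6 scored -0.960 to 1.87 (median 0.528) with paclitaxel, and its difference was -0.936 ± 0.231 (limma adjusted p = 0.00318). Psmd5 differed by -0.802 ± 0.263 and Ube2q1, a conjugating enzyme of less known substrates, by 0.876 ± 0.269 (limma adjusted p = 0.0425 and 0.0265). Without run A or without run C no Psm gene was called, and without run D 4 were. The proliferation marker Mcm5 (-2.44, 1 of 4) was also lower, and its part was not tested. At 24 h Ube2s and Ube2v2 were lower, where 3.4% of probes were. Ube2s scored -0.653 to 1.33 (median 0.356) with paclitaxel and -2.21 to 0.599 (median -0.660) with rapamycin, a difference of -1.03 ± 0.260 (limma adjusted p = 0.00394). Ube2v2, which lacks the active site and makes K63-linked chains with Ube2n, differed by -0.898 ± 0.266 (limma adjusted p = 0.0202). Without run A neither was called, and without run B or D 1 was. Of the 4 proliferation markers Mki67 (-3.97) and Cdk1 (-2.03) were lower too, the summed score having a median of -9.37 (range -13.6 to 1.19) with rapamycin and -0.888 (range -9.23 to 6.79) with paclitaxel. Of the 7 smooth muscle markers Tagln was higher, by 4.59, and their sum had a median of -0.0305 (range -4.41 to 4.53) with rapamycin and -7.23 (range -10.9 to 2.24) with paclitaxel. The part of these markers in the Ube2 differences was not tested. The Psm gene with the smallest p at 24 h was Psme2 (-0.671, limma adjusted p = 0.0558), and 8 Psm genes had an unadjusted p under 0.05. So had 2100 of all 11575 probes, a share near that of the Psm genes.

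Between 6 and 24 h in DMSO, Psmb6 was lower at 24 h (-0.982 ± 0.231), where 2.93% of probes were, and Psmb8 (1.04 ± 0.268) and the ATPase Psmc6 (0.842 ± 0.270) were higher, where 4.31% were. Psmb8 scored -1.80 to 1.45 (median -0.289) at 6 h and 0.00300 to 1.71 (median 0.672) at 24 h, so that every 24 h array lay above 0. Its run values ranged from 0.234 to 2.11, and without run A or C it was not called. Psmc6 was not called without run B, C or D. Psmb9 differed by 0.539 and was not called, and no Ube2 gene was, 2 having an unadjusted p under 0.05 with the smallest at Ube2q2 (0.671). In DMSO 2135 of 11575 probes had such a p. With 100 ng/mL rapamycin Psmd12 was higher at 24 h (0.893 ± 0.271), where 4.39% of probes were, though its other probe stood at -0.0632. Ube2c (-2.46 ± 0.729) and Ube2t (-2.00 ± 0.554) were lower, where 5.32% of probes were. For Ube2c this came from runs B (-5.88) and D (-5.81), while runs A and C stood at 0.145 and 1.70. Without run D neither was called, and without run B 1 was called that had not been. Of the 4 proliferation markers Mki67 (-2.50) and Cdk1 (-2.09) were lower over the same arrays, and the summed score had a median of -9.37 (range -13.6 to 1.19) at 24 h and -3.01 (range -11.6 to 7.39) at 6 h. The interferon response gene Irf7 (-1.57, 1 of 3) and the smooth muscle marker Cnn1 (-0.977, 1 of 7) were lower and the fibroblast marker Dcn (1.54, 1 of 3) higher. The part of these markers in the member differences was not tested. With 1000 ng/mL paclitaxel Psmd10, a chaperone of the cap also known as gankyrin, was higher at 24 h (0.782 ± 0.248), as was Ube2k (1.15 ± 0.364), where 4.45% of probes were. Of the 7 smooth muscle markers Tagln (-4.67) and Lmod1 (-1.10) were lower, the sum having a median of -7.23 (range -10.9 to 2.24) at 24 h and 0.597 (range -1.94 to 2.30) at 6 h. The proliferation marker Mcm5 (-2.32, 1 of 4) was lower, and the leukocyte marker Cd14 (0.951, 1 of 3) and the fibroblast marker Dcn (1.48, 1 of 3) were higher. The part of these markers was not tested.

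From array to array most pairs of Psm genes had low correlations. Over the 224 arrays the 741 Psm pairs had correlations between -0.314 and 0.660, with a median of 0.0907, and the 153 Ube2 pairs had a median of -0.00724. These arrays share runs and treatments, and no pairs of other genes are given beside them, so the values are descriptions. The highest Psm pairs were Psmc1 with Psmd13 (0.660), Psma2 with Psma3 (0.547) and Psmb3 with Psmc2 (0.542). Psmb9 correlated with Psme1 at 0.494. The mean score of the 39 Psm genes in an array nonetheless differed between arms. At 6 h it lay between -0.378 and 0.396 (median 0.111) with DMSO, between -0.404 and 0.342 (median -0.178) with 1 ng/mL rapamycin and between -0.510 and 0.0376 (median -0.306) with 100 ng/mL. It was 0.139 at the median with insulin (range -0.510 to 0.675) and -0.0635 with vehicle (range -0.444 to 0.391), in 56 arrays each. At 24 h its medians were 0.0839 with DMSO and -0.190 with 100 ng/mL rapamycin. They were 0.107 with insulin and -0.0736 with vehicle, and 0.0927 at 25 mM and -0.0858 at 5 mM glucose. The ranges of these arms overlapped.

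Other genes of the pathway were counted from lists. With 100 ng/mL rapamycin at 6 h, 1 of 13 measured proteasome partners was called, the shuttle factor Ubqln2 (1.48 ± 0.471, higher), where 2.9% of all probes were higher, and their median was 0.103. Of 4 ubiquitin and ubiquitin-like genes and 4 E1 genes none was called. All of both lists were below 0, with medians of -0.365 and -0.334, beside the Psm median of -0.334. Of 24 measured E3 ligase genes 1 was called, Skp1 of the SCF ligases (-0.880 ± 0.266, lower), where 2.18% of probes were lower, and their median was -0.187. Between 100 ng/mL rapamycin and 1000 ng/mL paclitaxel at 6 h, Ubqln1 (1.07) was higher, where 3.98% of probes were. The E1 subunit Uba2 (-0.924) and the subunits Anapc1 (-0.841) and Cdc16 (-0.845) of the anaphase-promoting complex were lower, where 2.74% were. At 24 h the ligase Smurf1 (0.933) was higher, where 3.22% of probes were, and it was lower under 1000 ng/mL paclitaxel against DMSO (-1.03). Under 1 ng/mL rapamycin at 24 h the ligase Ube4a (-0.895) was lower.

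With insulin 0 of 13 partners were called at either hour. Of the ligases Ube4a (-0.495) and Smurf1 (-0.458) were lower at 6 h, where 3.48% of probes were, and Fbxw11 (0.572) was higher at 24 h, where 2.57% were. With glucose 0 ligases were called at 6 h. At 24 h Ube4a (0.345) and Anapc2 (0.496) were higher, where 5.45% of probes were, and Ube4b (-0.495) and Siah1 (-0.520) lower, where 4.56% were. From 6 to 24 h in DMSO the transcription factor gene Nfe2l2 (1.00) and the ligase genes Smurf1 (1.11), Cul4a (0.814), Ube4b (0.681) and Cul3 (0.867) rose, where 4.31% of probes did. The deubiquitinase gene Uchl5 (-0.634) and the ubiquitin-like Urm1 (-0.922) fell, where 2.93% did. With 100 ng/mL rapamycin Smurf1 (0.799) rose, where 4.39% of probes did, and Uchl5 (-0.827) and Anapc2 (-0.788) fell, where 5.32% did. With 1000 ng/mL paclitaxel Ubqln1 (1.07) rose, where 4.45% of probes did, and Anapc1 (-0.907), Cul4b (-0.735) and Anapc2 (-0.975) fell, where 3.89% did.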

How the data were processed

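Each array compared Cyanine-5 RNA of cultured rat aortic smooth muscle cells with Cyanine-3 RNA of newborn rat pups. The authors deposited 1 table of scores. Per the design text in the labels, ratios were loess normalized, filtered at an intensity of 30 and 70% good data, imputed from 3 nearest neighbours, cleared of components linked to the runs and standardized. Which log base was used, and whether genes were scaled, is not stated in these sources. Removing run components before deposition may lower the spread between runs.

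Scores were fitted in R 4.3.3 with limma 3.58.1, with a mean for each of 56 groups and a block for each run, over 224 arrays (165 residual degrees of freedom), followed by eBayes and Benjamini-Hochberg adjustment over 11575 probes, two-sided, per comparison. Scores had been planned for as log ratios, and the model was kept. The pairing by run comes from the labels and the design text. Deviations from group means correlated at 0.0210 within runs on average, at 0.0654 within an hour and -0.0218 between hours. Of the probes, 7473 had 1 gene symbol, 2 several and 4100 none; all 57 members' Entrez identifiers matched the RefSeq table and 0 symbols changed. Members, lists and comparisons were chosen with earlier results of these data known. Named are all called members (up to 10 per direction), else the smallest p in each family, Psmb8, Psmb9 and Ube2c, and context genes where called. Psmb10 is not analysed here. The fit was tested on simulated data. Their noise was independent between arrays and held no run effects, so this test cannot speak to differences that vary by run. Figures were drawn with matplotlib 3.10.9 in Python 3.11.15.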

Additional observations from a re-analysis of the deposited data

Results flagged for a closer look

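The change of the insulin effect between 6 and 24 h passed the test for Ube2t, from -0.840 to 0.901 (difference 1.74 ± 0.418, limma adjusted p = 0.00748), and for Psmb6, from 0.417 to -0.177 (difference -0.594 ± 0.175, limma adjusted p = 0.0429). Neither passed with the 4 runs as the unit. In 6 further cases all 4 runs moved one way at 6 h and the opposite way at 24 h, and the test of the difference did not pass. Under insulin these were Ube2c, from -0.837 to 0.706 (limma adjusted p = 0.122), Psmd12, from 0.435 to -0.232 (limma adjusted p = 0.0566), and Ube2k, from 0.208 to -0.193 (limma adjusted p = 0.527). Under 25 mM glucose they were Psmb2, from -0.198 to 0.341 (limma adjusted p = 0.0937), and Ube2n, from -0.312 to 0.309 (limma adjusted p = 0.181). Under 100 ng/mL rapamycin it was Psmb1, from -0.220 to 0.428 (limma adjusted p = 0.790). How many of all probes changed sign in this way is not given here. The 6 cases are thus not shown to be particular to the members. Among 41 called differences, 0 had a run that stood apart from the other 3 by Dixon's criterion. With so few runs that criterion rarely flags any. It cannot see runs that split into pairs, as those of Psmb9 under insulin at 24 h did.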

How the results depend on the processing

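All 41 called differences of named members kept their direction under each of the 13 alternatives that could be fitted, in 525 values with 0 reversals, and 149 of these values missed the threshold. In this balanced design several alternatives leave each difference unchanged, so a reversal was not possible there. These are no block, run by hour as block, robust eBayes, the compared groups alone and the runs as the unit. The 41 had also been picked as called in these same arrays. With the 4 runs as the unit 37 of the 41 missed it, and Psmb6 and Ube2t under 100 ng/mL rapamycin (6 and 24 h) and Ube2c and Ube2t under glucose at 6 h held. In that setting 1 Psm gene was lower under rapamycin at 6 h, 0 Psm genes were higher under insulin at 6 h, at 24 h or under glucose at 24 h, 0 Psm genes were lower against paclitaxel at 6 h, 1 Ube2 gene was lower against paclitaxel at 24 h and 2 under rapamycin at 24 h, and between hours 0 Psm genes were higher in DMSO and 0 Ube2 genes lower under rapamycin. With the compared groups alone, 4 Psm genes were lower under rapamycin at 6 h, 1 Psm gene was higher between hours in DMSO and 1 Ube2 gene lower between hours under rapamycin. Without the replicate block 6 Psm genes were lower under rapamycin at 6 h, and the block changed no count in this list by over 1.5 times. With run by hour as a replicate block 2 Ube2 genes were lower under 100 ng/mL rapamycin at 24 h, and 2 and 1 Psm genes were lower under 1 ng/mL at 6 and 24 h. At 1 ng/mL and 24 h, 1 Psm gene was lower, where the main count was 0, with arrays centred on their medians, with the mean of a gene's probes, without 1 of the nearly identical arrays and without the arrays titled as repeats.

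Leaving out each run in turn gave 3 to 5 lower Psm genes under 100 ng/mL rapamycin at 6 h, 0 to 9 higher Psm genes under insulin at 6 h and 0 to 5 at 24 h, 1 to 5 under glucose at 24 h, 2 to 3 lower Ube2 genes under glucose at 6 h, 0 to 1 under rapamycin at 24 h, 0 to 4 lower Psm genes against paclitaxel at 6 h and 0 to 2 lower Ube2 genes at 24 h, 0 lower Psm genes at 1 ng/mL and 6 h and 0 to 2 at 24 h, and between hours 0 to 1 higher Psm genes in DMSO and 0 to 2 lower Ube2 genes under rapamycin. Every such fit drops 1 array from each group, and its calls over all probes are not given here. These counts, and those without a run above, are thus not set against all probes. The number of arrays, with a median residual SD of 0.811, limits the precision, and signal over background was not used here.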
